A study of Mus musculus with 29 samples.

Results

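Mesenchymal cells from the mouse common bile duct that carried loxP-flanked (FF) alleles of the beta-catenin gene were compared with cells that carried FF alleles of Gli2 and Gli3 together. The libraries were chosen by genotype label. They comprise all 3 Ctnnb1FF and all 4 Gli2FFGli3FF libraries of the Pdgfra lineage, 7 of the 29 samples of the series. Every gene of the count tables entered the comparison.

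The series profiled peribiliary mesenchymal cells, which surround the extrahepatic bile duct, under normal conditions, injury and genetic gain or loss of function. Per the labels, the 7 animals all carried Pdgfra:CreERT2, an inducible Cre recombinase driven by the Pdgfra promoter, and a Rosa26 tdTomato reporter behind a stop cassette. The Ctnnb1FF animals carried Ctnnb1FF in addition, and the Gli2FFGli3FF animals carried Gli2FFGli3FF. The 5 Wild Type libraries, used here to show where unaltered levels lay, came from animals with the driver and the reporter, and for replicate 5 the GEO description adds SmoFF. The labels state neither ages nor the schedule of Cre induction. About 1000 sorted cells of each animal's duct made up a library. Recombination can be expected only in cells in which the Pdgfra driver was active, and cells that escaped it were not separated out.

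Beta-catenin has a pair of roles: it links cadherins to the actin cytoskeleton at adherens junctions, and it carries the canonical Wnt signal to the nucleus, where it works with TCF/LEF factors. Gli2 and Gli3 are the zinc-finger transcription factors through which Hedgehog ligands act. Gli2 is known mainly as an activator and Gli3 mainly as a repressor, and Gli1, Ptch1 and Hhip are their classical targets. In gut-derived organs, Hedgehog ligands made by epithelium act on the surrounding mesenchyme, and mesenchymal Wnt signals act on epithelium and mesenchyme alike.

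Total counts were 22586122 to 32912594 in Ctnnb1FF and 23581747 to 38301189 in Gli2FFGli3FF libraries. The ribosomal RNA locus took 29.8, 28.0 and 34.4% of counts in Ctnnb1FF libraries, against 49.2, 40.9, 50 and 38.4% in Gli2FFGli3FF libraries, so the groups did not overlap (exact two-sided permutation p = 0.0571, the smallest that 3 against 4 libraries allow). Mitochondrial genes took 7.57 ± 0.294% in Ctnnb1FF (SD, n = 3) and 7.78 ± 0.605% in Gli2FFGli3FF (SD, n = 4; exact permutation p = 0.743). Y-linked transcripts summed to at most 0.25 CPM (counts scaled to a common library size) in Ctnnb1FF, 1.74 to 200 CPM in Gli2FFGli3FF and 91.8 to 159 CPM in Wild Type libraries. Xist, made from an inactive X chromosome, was at 14.2 to 60.7 CPM in Ctnnb1FF, 6.17 to 46.4 CPM in Gli2FFGli3FF and at most 0.169 CPM in Wild Type. Sex-linked transcripts therefore differed between the groups, and every Gli2FFGli3FF library held Xist beside Y-linked transcripts. Ctnnb1FF replicate 2 stood apart from the other libraries on the first principal component, at -67.4 where the other Ctnnb1FF libraries lay at -19.2 and -24.7 and the Gli2FFGli3FF libraries at 20.0 to 34.5. That component held 41.1% of the variance. The sex of the animals and the genotype cannot be fully told apart in this comparison. Between Ctnnb1FF and Wild Type neither Xist nor Y-linked transcripts overlapped, so there sex and genotype cannot be told apart at all. Wild Type libraries also had more detected genes, 21100 to 24500, against 15900 to 17700 in Ctnnb1FF and 17500 to 20100 in Gli2FFGli3FF. The part of the ribosomal RNA share in the results was not tested beyond the settings with that share or the Y-linked level as covariate.

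**Figure D1:**
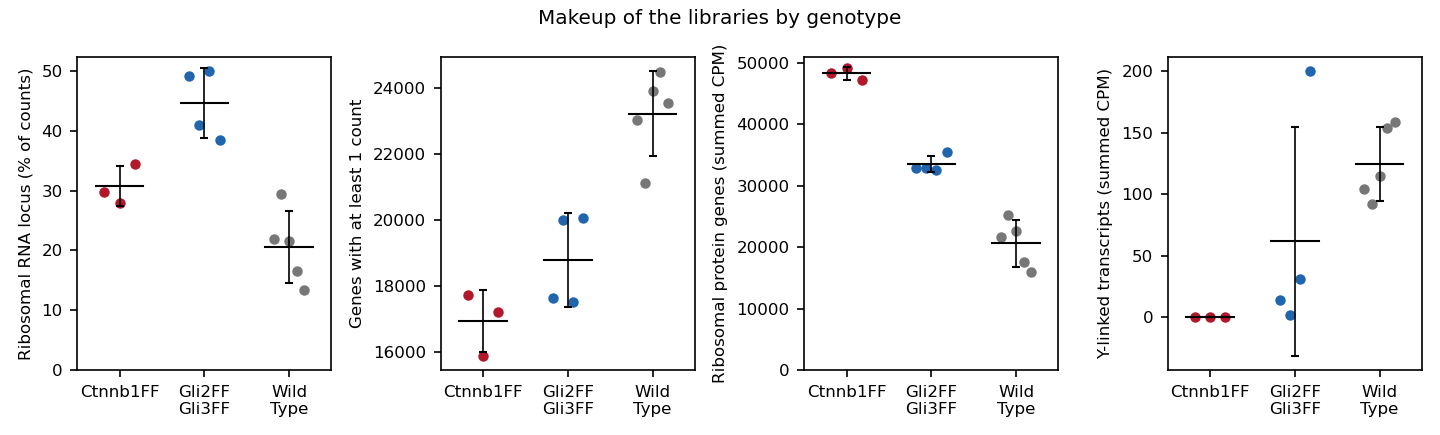
Share of counts on the ribosomal RNA locus (%), number of genes with at least 1 count, summed CPM of ribosomal protein genes and summed CPM of Y-linked transcripts in Ctnnb1FF, Gli2FFGli3FF and Wild Type libraries. Each point is a library, lines are group means and bars are SD. Ribosomal protein genes sum to 47200 to 49200 CPM in Ctnnb1FF, above the 32600 to 35400 CPM of Gli2FFGli3FF, and the count of detected genes overlaps between these groups.

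The sorted cells had the markers of mesenchyme in both genotypes. Dcn, which encodes the proteoglycan decorin, ranged from 18400 to 22700 CPM in Ctnnb1FF and from 11200 to 15000 CPM in Gli2FFGli3FF libraries. Pdgfra itself was at 207 to 268 CPM in Ctnnb1FF and 253 to 303 CPM in Gli2FFGli3FF. The 9 mesenchymal markers summed to 35200 ± 1800 CPM in Ctnnb1FF (SD, n = 3) and 31400 ± 3580 CPM in Gli2FFGli3FF (SD, n = 4), and these sums overlapped. Immune markers summed to 22.0 to 62.4 CPM in Ctnnb1FF, below the 89.3 to 583 CPM of Gli2FFGli3FF, and 12 of the 14 tested had a negative log2 fold change. The pan-leukocyte gene Ptprc had no count in at least 1 library of either genotype, and the macrophage genes Cd68 and Itgam had no count in any Ctnnb1FF library. The myeloid genes Lyz2 (at least 11.1 CPM in Ctnnb1FF and 11.4 CPM in Gli2FFGli3FF) and Cd14 (at least 5.96 CPM in Ctnnb1FF and 54 CPM in Gli2FFGli3FF) had counts in every library. Mesothelial markers summed to 560 to 584 CPM in Ctnnb1FF, 785 to 918 CPM in Gli2FFGli3FF and 1150 to 1470 CPM in Wild Type, of which Efemp1, also expressed by fibroblasts, made up the largest share in Ctnnb1FF. The defining mesothelial genes Msln and Upk3b were at 0 in at least 1 Ctnnb1FF library, where Upk3b was at 19.2 to 29.5 CPM in Gli2FFGli3FF. Wt1, Rspo1, Gpm6a and Lrrn4 of the same list had counts in every Ctnnb1FF library, at a lowest level of 15.5, 8, 3.4 and 0.4 CPM. Sums of cholangiocyte, hepatocyte, endothelial, smooth muscle and pancreatic acinar markers overlapped between Ctnnb1FF and Gli2FFGli3FF libraries. In bulk samples, fewer cells of a type and less RNA per cell cannot be told apart.

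The targeted genes were examined first, since they bear on the labels. Ctnnb1 (chr9:120929216-120960507, mm10) had 47.9, 44.0 and 38 CPM in Ctnnb1FF libraries, against 108, 95.5, 79.0 and 76.9 CPM in Gli2FFGli3FF libraries. Every Ctnnb1FF library lay below every Gli2FFGli3FF library, with a log2 fold change of -1.05 (SE 0.20, edgeR adjusted p = 0.00464). The call held in 19 of 20 other settings, with a highest adjusted p of 0.0528 in a fit of the 7 libraries on protein-coding genes. Wild Type libraries lay between the groups at 58.5 ± 5.13 CPM (SD, n = 5). Against Wild Type, with the Wild Type libraries shared by both contrasts, the log2 fold change of Ctnnb1 was -0.44 in Ctnnb1FF (SE 0.19, edgeR adjusted p = 0.108) and 0.62 in Gli2FFGli3FF (SE 0.17, edgeR adjusted p = 0.0175). Over all tested genes, 8.04% were called higher and 11.9% lower in Ctnnb1FF than in Wild Type, and 7.6% higher and 9.56% lower in Gli2FFGli3FF than in Wild Type. Ctnnb1 transcript thus remained in the Ctnnb1FF libraries. Every one of them lay below every Wild Type library (53.2 to 64.2 CPM), although that difference was not called. Counts are per gene and the labels do not name the deleted exons, so reads from the rest of the transcript or from unrecombined cells cannot be told apart.

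Gli2 (chr1:118834132-119053619) had 10.5, 13.4 and 5.55 CPM in Ctnnb1FF libraries, against 1.55, 6.39, 5.40 and 6 CPM in Gli2FFGli3FF libraries. The groups overlapped and the difference was not called (log2 fold change 1.02, SE 0.46, edgeR adjusted p = 0.202). Gli3 (chr13:15463235-15730026) had 13.2, 16.2 and 8.36 CPM in Ctnnb1FF libraries, against 7.63, 6.39, 2.83 and 6.4 CPM in Gli2FFGli3FF libraries. Its groups did not overlap, but it fell just short of the threshold (log2 fold change 1.11, SE 0.33, edgeR adjusted p = 0.0546) and passed it in 9 of 20 other settings. Leaving out Ctnnb1FF replicate 3 gave an edgeR adjusted p of 0.026 for Gli3, and leaving out Gli2FFGli3FF replicate 1 gave 0.049. Both genes were lower in Gli2FFGli3FF than in Wild Type, where Gli2 averaged 17.7 ± 3.22 and Gli3 36.4 ± 6.31 CPM (SD, n = 5). The log2 fold changes of Gli2FFGli3FF over Wild Type were -1.87 for Gli2 (SE 0.42, edgeR adjusted p = 0.00386) and -2.65 for Gli3 (SE 0.31, edgeR adjusted p = 4.52e-06). Ctnnb1FF libraries also had less Gli3 than Wild Type, by a log2 fold change of -1.53 (SE 0.33, edgeR adjusted p = 0.0021), while Gli2 was not called there (-0.85, SE 0.45, edgeR adjusted p = 0.169). Gli3 was thus below Wild Type in both genotypes, although the labels give the Ctnnb1FF animals no altered Gli3 allele.

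**Figure D2:**
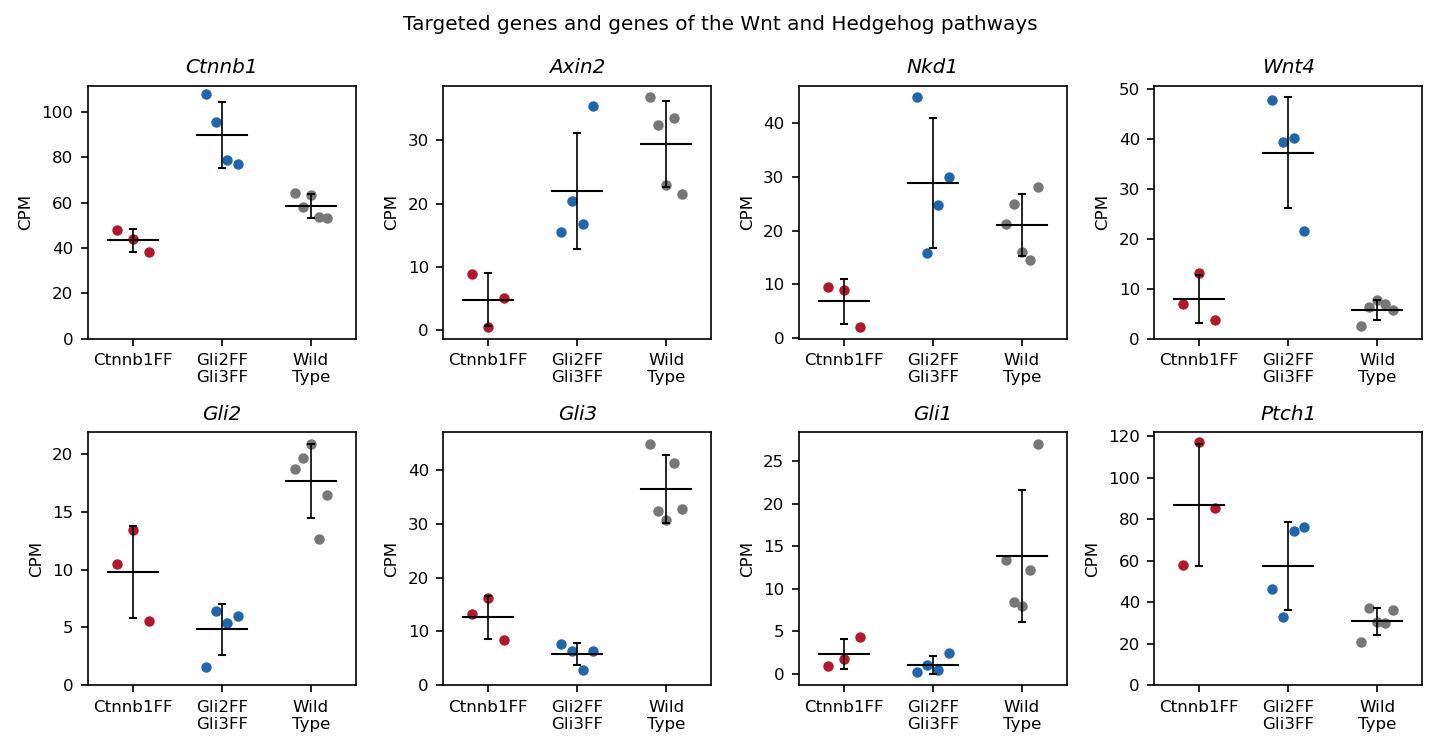
CPM of Ctnnb1, Axin2, Nkd1, Wnt4, Gli2, Gli3, Gli1 and Ptch1 in Ctnnb1FF, Gli2FFGli3FF and Wild Type libraries. Each point is a library, lines are means and bars are SD. Ctnnb1, Axin2, Nkd1 and Wnt4 are lower in every Ctnnb1FF than in every Gli2FFGli3FF library, while Gli1 and Ptch1 overlap between them.

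Across the transcriptome, 1024 of 24383 tested genes (4.2%) differed between Ctnnb1FF and Gli2FFGli3FF at an edgeR quasi-likelihood adjusted p under 0.05. Of these, 418 (1.71%) were higher and 606 (2.49%) lower in Ctnnb1FF. The lower set held more weakly expressed genes, and 104 of its genes had no count in any Ctnnb1FF library. Among the 8534 expressed genes (mean log2 CPM of 3 or more), calls were even, with 328 higher (3.84%) and 330 lower (3.87%). Counts of called members in the gene lists below are to be read beside these shares. The balance of directions differed between settings. Upper quartile scaling, which shifted the median log2 fold change of these expressed genes by 0.128, gave 575 higher and 473 lower genes, RLE scaling gave 460 higher and 572 lower, and limma voom gave 432 higher and 375 lower. Leaving out Ctnnb1FF replicate 2 lowered the count to 530 genes, and leaving out Gli2FFGli3FF replicate 1 or 2 lowered it to 613 or 639. A fit of the 7 libraries alone called 304 genes, 190 higher and 114 lower, and 256 of them were called in the same direction in the fit of 23 libraries. A core of 65 genes was called in every one of the 20 other settings.

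**Figure D3:**
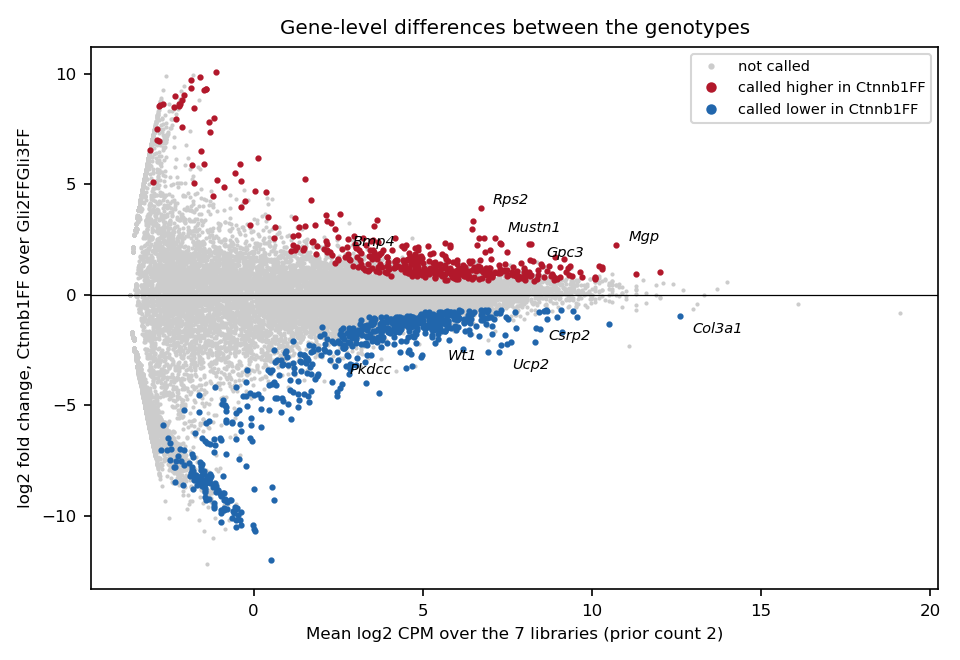
log2 fold change of Ctnnb1FF over Gli2FFGli3FF against mean log2 CPM over the 7 libraries, for all 24383 tested genes. Red points are the 418 genes called higher and blue points the 606 called lower in Ctnnb1FF. Weakly expressed genes with very negative values at the lower left have no or nearly no count in Ctnnb1FF.

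Some genes that report canonical Wnt signalling were lower in Ctnnb1FF, and no member of the target list was called higher. Of 24 tested target genes, 4 fell in Ctnnb1FF, 20 did not pass, and the median log2 fold change was -0.75, beside 0.00 for all tested genes. Leaving out Ctnnb1FF replicate 3 left 1 of these calls, and the fit of the 7 libraries alone left 0. Axin2 (chr11:108920349-108950783), a negative feedback scaffold of the pathway and its most used readout, had 8.85, 0.47 and 5.00 CPM in Ctnnb1FF, against 15.5, 20.4, 16.8 and 35.4 CPM in Gli2FFGli3FF. It was lower in 3 of 3 Ctnnb1FF libraries, with a log2 fold change of -2.22 (SE 0.57, edgeR adjusted p = 0.03). That call was lost without Ctnnb1FF replicate 2 (0.0515), Ctnnb1FF replicate 3 (0.0621) or Gli2FFGli3FF replicate 4 (0.0689) and held in 11 of 20 settings. Against Wild Type at 29.4 ± 6.81 CPM (SD, n = 5), Axin2 was lower in Ctnnb1FF (log2 fold change -2.63, SE 0.57, edgeR adjusted p = 0.00214) and not called in Gli2FFGli3FF (-0.42, SE 0.46, edgeR adjusted p = 0.544).

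Nkd1 (chr8:88521354-88594884), a feedback inhibitor that binds Dishevelled, had 9.58, 8.98 and 2.10 CPM in Ctnnb1FF, against 44.7, 15.9, 24.8 and 30 CPM in Gli2FFGli3FF. The groups did not overlap (log2 fold change -2.06, SE 0.44, edgeR adjusted p = 0.00906), and the call held without any single library but not in the fit of the 7 libraries alone. The Wild Type mean, 21.0 ± 5.76 CPM (SD, n = 5), lay within the range of Gli2FFGli3FF, and every Wild Type library lay above every Ctnnb1FF library. The other called targets were Cd44, a hyaluronan receptor, at 51.6 to 69.5 CPM in Ctnnb1FF and 71.3 to 251 CPM in Gli2FFGli3FF, and Tnfrsf19, a TNF receptor family member, at 7.21 to 11.4 CPM in Ctnnb1FF and 17.3 to 37.5 CPM in Gli2FFGli3FF. Both lost their edgeR calls without Ctnnb1FF replicate 2 or 3 or Gli2FFGli3FF replicate 1 or 2 (adjusted p of 0.0624 to 0.0731 without either Gli2FFGli3FF library for Cd44 and 0.0735 to 0.0965 for Tnfrsf19), and Tnfrsf19 also without Ctnnb1FF replicate 1 (0.0813). Against Wild Type, Cd44 was not called in Ctnnb1FF (log2 fold change -0.14, edgeR adjusted p = 0.77). It was higher than Wild Type in Gli2FFGli3FF (1.27, edgeR adjusted p = 0.00254). Tnfrsf19 was not called against Wild Type in Ctnnb1FF (-0.78, edgeR adjusted p = 0.146) or Gli2FFGli3FF (0.81, edgeR adjusted p = 0.105). Lef1 had no count in any Ctnnb1FF library and was seen in 1 Gli2FFGli3FF library. Notum, Apcdd1 and Wif1, secreted or membrane-bound Wnt antagonists, overlapped between the groups and were not called.

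Among ligands and other pathway parts, Wnt4 was the called ligand of 13 tested. It had 6.95, 13.2 and 3.65 CPM in Ctnnb1FF, against 47.7, 39.3, 40.2 and 21.5 CPM in Gli2FFGli3FF, without overlap (log2 fold change -2.22, SE 0.45, edgeR adjusted p = 0.00668). Wild Type libraries averaged 5.79 ± 2.02 CPM (SD, n = 5) for Wnt4, within the range of Ctnnb1FF, so the level that stood apart was that of Gli2FFGli3FF. The Wnt4 call was lost in the fit of the 7 libraries alone and with the Y-linked level as a covariate, where the highest adjusted p was 0.0563. Of 27 receptors and secreted modulators, 2 fell: the antagonist Sfrp2, with 14.3 to 22.5 CPM in Ctnnb1FF and 26.5 to 75.8 CPM in Gli2FFGli3FF, and the R-spondin Rspo1, which is also a mesothelial marker. Without Ctnnb1FF replicate 2, 0 of these 27 were called. Of 20 genes of the destruction complex and of beta-catenin's partners, 2 fell, the kinase Csnk1a1 (log2 fold change -1.09, SE 0.23, edgeR adjusted p = 0.00775) and the Dishevelled gene Dvl3 (-1.31, SE 0.30, edgeR adjusted p = 0.0162). Both calls were lost without Ctnnb1FF replicate 2, at 0.0612 for Csnk1a1 and 0.083 for Dvl3. Csnk1a1 and Dvl3 were not called in Ctnnb1FF against Wild Type (log2 fold changes -0.47 and -0.50, edgeR adjusted p of 0.12 and 0.199). In Gli2FFGli3FF they were higher than in Wild Type (0.62 and 0.81, edgeR adjusted p of 0.0297 and 0.0319).

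Beta-catenin also acts at junctions. Of 21 adherens junction genes, 4 fell and 0 rose, with a median log2 fold change of -0.88. N-cadherin (Cdh2) had 27.8, 14.5 and 23.3 CPM in Ctnnb1FF, against 127, 115, 43.5 and 21.8 CPM in Gli2FFGli3FF, so the groups overlapped although the gene passed the test (log2 fold change -1.81, SE 0.49, edgeR adjusted p = 0.0382). The others were the nectin Nectin2 (log2 fold change -1.93), p120-catenin Ctnnd1 (-1.02) and the protocadherin Pcdh7 (-0.99). Each of these 4 calls was lost without Ctnnb1FF replicate 2, and also without Gli2FFGli3FF replicate 1 or 2, so that leaving out any of these 3 libraries left 0 called members. Cdh2, Ctnnd1 and Pcdh7 were not called in Ctnnb1FF against Wild Type (log2 fold changes 1.03, 0.05 and 0.16). In Gli2FFGli3FF they were higher than in Wild Type (2.84, 1.07 and 1.14, edgeR adjusted p of 6.8e-05, 0.00359 and 0.00189). Nectin2 was lower than Wild Type in Ctnnb1FF (-1.37, edgeR adjusted p = 0.0351) and not called in Gli2FFGli3FF (0.55). Plakoglobin (Jup), the closest relative of beta-catenin, had 10.4, 2.04 and 21.4 CPM in Ctnnb1FF and 13.2 to 17.7 CPM in Gli2FFGli3FF, and was not called.

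None of the classical Hedgehog targets Gli1, Ptch1 and Hhip was called by edgeR between the genotypes, although 2 of them passed in 1 of 20 other settings each. Gli1, a direct target and reporter of the pathway, had 0.952, 1.80 and 4.30 CPM in Ctnnb1FF, against 0.270, 1.06, 0.430 and 2.51 CPM in Gli2FFGli3FF (log2 fold change 1.12, SE 0.70, edgeR adjusted p = 0.36). Both genotypes were below Wild Type, which averaged 13.8 ± 7.72 CPM (SD, n = 5). The log2 fold change of Gli1 over Wild Type was -2.55 in Ctnnb1FF (SE 0.71, edgeR adjusted p = 0.0148) and -3.67 in Gli2FFGli3FF (SE 0.68, edgeR adjusted p = 0.000648). The receptor Ptch1 had 58.1, 117 and 85.4 CPM in Ctnnb1FF, against 46.5, 33.0, 74.3 and 76.2 CPM in Gli2FFGli3FF (log2 fold change 0.60, SE 0.36, edgeR adjusted p = 0.343; 1.71 and 0.0247 with the level of Y-linked transcripts as a covariate), and 30.8 ± 6.55 CPM in Wild Type (SD, n = 5). Over Wild Type, the log2 fold change of Ptch1 was 1.5 in Ctnnb1FF (SE 0.34, edgeR adjusted p = 0.00315) and 0.90 in Gli2FFGli3FF (SE 0.32, edgeR adjusted p = 0.0533), the opposite sign to that of Gli1. Hhip, a decoy receptor for the ligands, had 20.5, 19.6 and 16.5 CPM in Ctnnb1FF, against 1.21, 2.08, 9.58 and 13.9 CPM in Gli2FFGli3FF. These groups did not overlap, but the difference was not called (log2 fold change 1.49, SE 0.73, edgeR adjusted p = 0.24; 0.000318 without a filter on low counts). The signal transducer Smo overlapped at 23.5 to 34.6 CPM in Ctnnb1FF and 31.8 to 52.9 CPM in Gli2FFGli3FF.

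Over the 18 Hedgehog target genes, 1 rose and 1 fell, with a median log2 fold change of 0.08, and over 30 receptors and transducers 1 rose and 1 fell, with a median of -0.40. Among expressed genes, 3.84% were called higher and 3.87% lower. The target that rose was Bmp4 (chr14:46383520-46390669), a BMP ligand, with 77.0, 41.2 and 62.3 CPM in Ctnnb1FF, against 15.7, 25.8, 9.21 and 16.0 CPM in Gli2FFGli3FF. Its groups did not overlap, and the log2 fold change of 1.85 (SE 0.29, edgeR adjusted p = 0.000999) was called in all 20 other settings, with a highest adjusted p of 0.0477. Wild Type lay between at 30.1 ± 4.30 CPM (SD, n = 5). Id2 (chr12:25093799-25097140), an inhibitor of helix-loop-helix factors and a BMP-responsive gene, was higher as well, with 314, 392 and 329 CPM in Ctnnb1FF, against 145, 113, 199 and 190 CPM in Gli2FFGli3FF (log2 fold change 1.09, SE 0.23, edgeR adjusted p = 0.00932). These were the 2 called of 27 BMP ligands, antagonists and Id targets, and both were called in each of the 20 other settings. The coreceptor Cdon fell, to 86.5 to 93.3 CPM in Ctnnb1FF, against 113 to 195 CPM in Gli2FFGli3FF (log2 fold change -0.77, SE 0.22, edgeR adjusted p = 0.0466), a call that held in 5 of 20 settings and was kept, among single libraries left out, only without Gli2FFGli3FF replicate 1. Glypican 3 (Gpc3, chrX:52272426-52613950), a heparan sulfate proteoglycan that binds Hedgehog and Wnt ligands, had 517, 661 and 555 CPM in Ctnnb1FF, against 185, 146, 275 and 193 CPM in Gli2FFGli3FF. Its log2 fold change of 1.53 (SE 0.20, edgeR adjusted p = 0.000167) was called in all 20 other settings, the Y-linked level as a covariate among them.

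Beyond both pathways, a set of genes separated the genotypes under every setting tried. The matrix Gla protein gene Mgp (chr6:136872435-136875823), an inhibitor of calcification, was among the most abundant, with 4290, 5950 and 2460 CPM in Ctnnb1FF, against 730, 959, 1170 and 675 CPM in Gli2FFGli3FF (log2 fold change 2.26, SE 0.28, edgeR adjusted p = 0.000103). Wild Type was lower still at 401 ± 86.4 CPM (SD, n = 5). Mustn1 (chr14:30879200-30881610), a small nuclear protein of muscle and skeletal tissue, had 364, 451 and 411 CPM in Ctnnb1FF, against 37.3, 62.8, 98.3 and 76.4 CPM in Gli2FFGli3FF (log2 fold change 2.57, SE 0.30, edgeR adjusted p = 5.05e-05). The chemokine gene Ccl19, whose product guides cells that bear CCR7, had 149, 164 and 92.7 CPM in Ctnnb1FF, against 15.8, 15.8, 32.4 and 42.6 CPM in Gli2FFGli3FF (log2 fold change 2.34, SE 0.32, edgeR adjusted p = 0.000235). For Ccl19, Gli2FFGli3FF ranged from near the Wild Type level of 15.9 ± 0.718 CPM (SD, n = 5) up to 42.6 CPM. Every Ctnnb1FF library lay above both. The class I-like gene H2-T23 had 125, 130 and 142 CPM in Ctnnb1FF, against 31.3, 27.6, 26.5 and 30.7 CPM in Gli2FFGli3FF (log2 fold change 2.18, SE 0.31, edgeR adjusted p = 0.000376), and its reads may be shared with near-identical class I copies.

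Other large rises were less even between libraries. Pcsk6, a proprotein convertase, had 26.6, 42.9 and 103 CPM in Ctnnb1FF, against 11.9, 1.78, 3.75 and 4.97 CPM in Gli2FFGli3FF (log2 fold change 3.38, SE 0.69, edgeR adjusted p = 0.00689). The Wild Type mean of 90.2 ± 36.3 CPM (SD, n = 5) lay below 1 Ctnnb1FF library and above the other libraries of both genotypes. Syndig1 (log2 fold change 2.59), Art4 (2.55), Gng8 (2.49), the bHLH factor gene Msc (2.45) and the imprinted gene Zim1 (2.40) were also among the 12 largest rises of expressed genes, and none of them overlapped between Ctnnb1FF and Gli2FFGli3FF. Gng8 and Zim1 lost their calls without Ctnnb1FF replicate 2 (edgeR adjusted p = 0.0638 and 0.0736), and Zim1 also without Ctnnb1FF replicate 3 (0.0573) or Gli2FFGli3FF replicate 1 (0.0813), 2 (0.0647) or 3 (0.0761).

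Ucp2, Pkdcc, Gucy1a1, Itga6, Wt1, Csrp2 and Col4a5 were among the genes called lower in all 20 other settings. Ucp2 (chr7:100493337-100502020), which encodes a mitochondrial inner-membrane carrier, had 37.4, 51.3 and 85.1 CPM in Ctnnb1FF, against 457, 425, 287 and 221 CPM in Gli2FFGli3FF (log2 fold change -2.58, SE 0.33, edgeR adjusted p = 0.000103). Wild Type was at 22.3 ± 2.82 CPM (SD, n = 5), so both genotypes lay above it and Gli2FFGli3FF by more. Pkdcc, a secreted tyrosine kinase that acts on matrix proteins, had 12.3, 6.59 and 12.5 CPM in Ctnnb1FF, against 106, 57.4, 52.9 and 77.0 CPM in Gli2FFGli3FF (log2 fold change -2.81, SE 0.38, edgeR adjusted p = 0.000177). Gucy1a1, a subunit of the nitric oxide receptor guanylate cyclase, had 10.5, 11.7 and 6.96 CPM in Ctnnb1FF, against 47.2, 104, 35.7 and 31.1 CPM in Gli2FFGli3FF (log2 fold change -2.49, SE 0.40, edgeR adjusted p = 0.0012). Its Wild Type level of 7.50 ± 1.82 CPM (SD, n = 5) was near that of Ctnnb1FF, whereas Pkdcc at 30.9 ± 3.14 CPM in Wild Type lay between the genotypes. The integrin subunit Itga6, which pairs into laminin receptors, was nearly silent in Ctnnb1FF at 0.056, 0.0392 and 0.050 CPM, against 4.79, 6.01, 8.11 and 1.60 CPM in Gli2FFGli3FF (log2 fold change -6.60, SE 1.39, edgeR adjusted p = 0.00832). Its Wild Type level was also low, at 0.715 ± 0.756 CPM (SD, n = 5). Ctnnb1FF lay below Wild Type (-3.77, edgeR adjusted p = 0.035) and Gli2FFGli3FF above it (2.83, edgeR adjusted p = 0.0342).

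Further falls among the 12 largest were Myrf, a membrane-bound transcription factor, with 0.951 to 13.6 CPM in Ctnnb1FF and 39.4 to 109 CPM in Gli2FFGli3FF, and the aryl hydrocarbon receptor Ahr, with 0.851 to 4.87 CPM in Ctnnb1FF and 15.4 to 26.8 CPM in Gli2FFGli3FF. Their log2 fold changes were -3.31 for Myrf (SE 0.58, edgeR adjusted p = 0.00218) and -2.85 for Ahr (SE 0.52, edgeR adjusted p = 0.003), and each held in 19 of 20 settings. The adhesion molecule Cxadr (-3.21), the receptor phosphatase Ptprf (-2.67), the splicing factor Cwc22 (-2.71), the desaturase-like Fads3 (-2.73), Fam110c (-3.19) and the kinesin Kif26b (-2.37) completed the set together with the ribosomal protein gene Rpl29. Fam110c lost its call without any 1 of the 7 libraries except Ctnnb1FF replicate 1, with edgeR adjusted p of 0.052 to 0.138. Without Ctnnb1FF replicate 2, Cxadr (0.0736) and Kif26b (0.0611) were not called either.

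**Figure D4:**
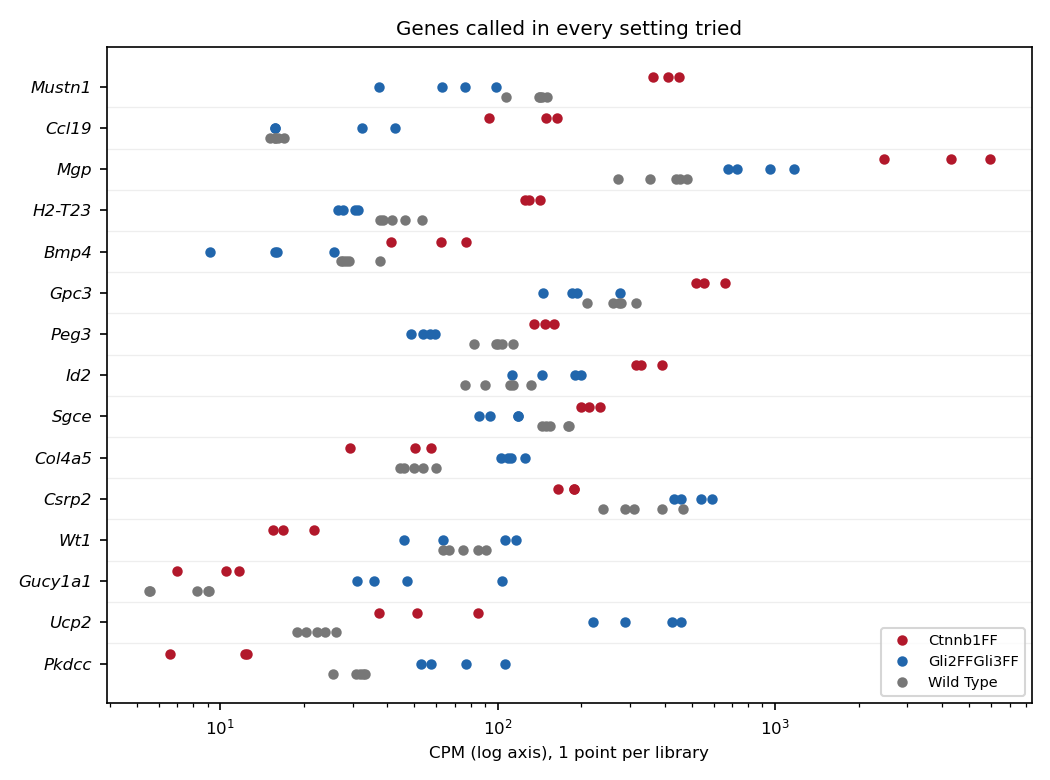
CPM on a log axis of 15 genes that were called in the comparison of Ctnnb1FF with Gli2FFGli3FF and in all 20 other settings, 1 point per library, with Wild Type libraries for the level of unaltered animals. No gene shown has overlapping Ctnnb1FF and Gli2FFGli3FF libraries. For Mgp, Ccl19, Id2, H2-T23, Mustn1, Bmp4, Gpc3, Ucp2, Peg3 and Sgce the Ctnnb1FF points lie above the Wild Type points. For Pkdcc, Wt1 and Csrp2 they lie below them, and for Col4a5 and Gucy1a1 they overlap.

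Wt1, Gata6 and Hoxa5, which encode transcription factors, fell. Wt1 (chr2:105126529-105173616), a zinc-finger factor of mesothelium and stellate-type mesenchyme, had 21.7, 15.5 and 16.8 CPM in Ctnnb1FF, against 116, 106, 45.8 and 63.7 CPM in Gli2FFGli3FF (log2 fold change -2.20, SE 0.32, edgeR adjusted p = 0.000396, called in all 20 other settings). Wild Type was at 76.2 ± 11.6 CPM (SD, n = 5), in the range of Gli2FFGli3FF. Gata6 had 52.3, 49.6 and 51.9 CPM in Ctnnb1FF, against 135, 133, 117 and 80.6 CPM in Gli2FFGli3FF (log2 fold change -1.18, SE 0.25, edgeR adjusted p = 0.00756). Over Wild Type, Gata6 was not called in Ctnnb1FF (-0.24, edgeR adjusted p = 0.441) and was higher in Gli2FFGli3FF (0.94, edgeR adjusted p = 0.00328). Hoxa5 had 1.01, 0.431 and 1.40 CPM in Ctnnb1FF, against 14.8, 14.3, 10.5 and 5.43 CPM in Gli2FFGli3FF (log2 fold change -3.58, SE 0.52, edgeR adjusted p = 0.000417), the 1 called member of 19 Hox genes. Of 14 mesothelial markers, Wt1 and Rspo1 were called lower and 12 had negative log2 fold changes, with a median of -1.86. Rspo1 lost its call without Ctnnb1FF replicate 1 or 2 or Gli2FFGli3FF replicate 1, 2 or 3 (edgeR adjusted p of 0.0681 to 0.161). The part of mesothelial RNA in the falls of Wt1 and Gata6 was not tested.

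Matrix genes were called in both directions, and most members of each matrix list did not pass. Of 12 small leucine-rich proteoglycans, which coat collagen fibrils, 4 rose, 0 fell and all 12 had positive log2 fold changes, with a median of 0.78. Lum had 3570, 4210 and 3570 CPM in Ctnnb1FF, against 1180, 2200, 2640 and 1960 CPM in Gli2FFGli3FF (log2 fold change 0.92, SE 0.22, edgeR adjusted p = 0.0183). Omd had 51.5, 110 and 64.3 CPM in Ctnnb1FF, against 19.4, 9.26, 8.29 and 30.6 CPM in Gli2FFGli3FF (log2 fold change 2.16, SE 0.41, edgeR adjusted p = 0.00438), and Fmod (1.36) and Podn (1.13) rose as well. Leaving out Ctnnb1FF replicate 2 or Gli2FFGli3FF replicate 1 left 2 of the 4 calls, with edgeR adjusted p of 0.0848 and 0.053 for Lum and 0.106 and 0.0919 for Fmod, which was also lost without Gli2FFGli3FF replicate 2 (0.0689). The fit of the 7 libraries alone called 1.

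Of 45 fibrillar matrix genes, 4 rose and 4 fell, with a median of 0.04. Col3a1, a main fibrillar collagen, had 4440, 3880 and 4210 CPM in Ctnnb1FF, against 6800, 8500, 9020 and 8120 CPM in Gli2FFGli3FF (log2 fold change -0.96, SE 0.23, edgeR adjusted p = 0.0192). Fibronectin (Fn1) had 980, 612 and 1100 CPM in Ctnnb1FF, against 2970, 3120, 1640 and 1350 CPM in Gli2FFGli3FF (log2 fold change -1.34, SE 0.30, edgeR adjusted p = 0.0118). Col1a1, by contrast, was at 2410 to 3100 CPM in Ctnnb1FF and 2390 to 2880 CPM in Gli2FFGli3FF and was not called. The elastic-fibre genes Mfap4, Mfap5 and Fbln5 and the crosslinking enzyme gene Loxl3 were higher in Ctnnb1FF, with Mfap4 at 332 to 532 CPM in Ctnnb1FF and 84.4 to 256 CPM in Gli2FFGli3FF. Wild Type was at 600 ± 104 CPM for Mfap4 and 47.6 ± 6.65 CPM for Loxl3 (SD, n = 5). Neither Mfap4 nor Loxl3 was called between Ctnnb1FF and Wild Type. In Gli2FFGli3FF, Mfap4 and Loxl3 were lower than in Wild Type (log2 fold changes -1.67 and -2.17, edgeR adjusted p of 0.000111 and 2.92e-05). Without Ctnnb1FF replicate 2, 1 fibrillar gene was called higher and 0 lower, with Col3a1 at an edgeR adjusted p of 0.107, Fn1 at 0.0948 and Mfap4 at 0.0741. Without Gli2FFGli3FF replicate 2, 0 were called lower, and Col3a1 was also lost without Ctnnb1FF replicate 1 (0.0559), Ctnnb1FF replicate 3 (0.0678) or Gli2FFGli3FF replicate 3 (0.0654), and Fn1 without Gli2FFGli3FF replicate 1 (0.0517). The basement membrane collagen gene Col4a5 fell in every setting, with 57.4, 50.3 and 29.4 CPM in Ctnnb1FF, against 112, 125, 103 and 109 CPM in Gli2FFGli3FF (log2 fold change -1.29, SE 0.23, edgeR adjusted p = 0.00257). Over Wild Type, Col4a5 was not called in Ctnnb1FF (-0.15, edgeR adjusted p = 0.618) and was higher in Gli2FFGli3FF (1.14, edgeR adjusted p = 0.000308). The matrix protease gene Mmp3 rose to 210, 233 and 334 CPM in Ctnnb1FF, against 23.1, 48.7, 104 and 39.4 CPM in Gli2FFGli3FF (log2 fold change 2.26, SE 0.54, edgeR adjusted p = 0.0187), a call lost without Gli2FFGli3FF replicate 1 (0.0578).

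Of 23 contractile and myofibroblast genes, 4 fell and 0 rose. Csrp2, a LIM protein of smooth muscle and activated fibroblasts, had 189, 188 and 165 CPM in Ctnnb1FF, against 432, 541, 592 and 459 CPM in Gli2FFGli3FF (log2 fold change -1.49, SE 0.23, edgeR adjusted p = 0.000822, called in all 20 other settings). Caldesmon (Cald1) had 364, 254 and 301 CPM in Ctnnb1FF, against 495, 549, 444 and 463 CPM in Gli2FFGli3FF, and its log2 fold change of -0.67 was called in 10 of 20 settings and not without Ctnnb1FF replicate 2 (edgeR adjusted p = 0.138) or 3 (0.0661) or Gli2FFGli3FF replicate 1 (0.0577) or 2 (0.0792). Over Wild Type, Cald1 was not called in Ctnnb1FF (log2 fold change -0.02, edgeR adjusted p = 0.958) and was higher in Gli2FFGli3FF (0.65, edgeR adjusted p = 0.00226). Smtn and Cnn1 completed the called members, and Cnn1 had no count in Ctnnb1FF. Without Ctnnb1FF replicate 3 or Gli2FFGli3FF replicate 2, 1 contractile gene was called. The TEAD factor gene Tead1 had 25.9, 23.8 and 22.8 CPM in Ctnnb1FF, against 102, 69.4, 47.4 and 63.6 CPM in Gli2FFGli3FF (log2 fold change -1.55, SE 0.31, edgeR adjusted p = 0.00611), in a list of 20 YAP and CCN genes where 2 fell and 1 rose. Over Wild Type, Tead1 was not called in Ctnnb1FF (-0.71, edgeR adjusted p = 0.0876) and was higher in Gli2FFGli3FF (0.84, edgeR adjusted p = 0.0298). Smad3, a TGF-beta signal transducer, had 15.4, 12.3 and 18.9 CPM in Ctnnb1FF, against 45.8, 32.9, 33.0 and 33.4 CPM in Gli2FFGli3FF (log2 fold change -1.23, SE 0.27, edgeR adjusted p = 0.0114), and lost its call without Ctnnb1FF replicate 2 (0.0733).

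All calls among inflammatory feedback genes were falls. Of 23 acute-phase and NF-kB feedback genes, 5 fell, 0 rose and 21 had negative log2 fold changes, with a median of -0.74. In 11 of them every Ctnnb1FF library was below every Gli2FFGli3FF library, a pattern found in 6.78% of all tested genes. Tnfaip2 had 25.7, 30.6 and 25.4 CPM in Ctnnb1FF, against 85.7, 80.5, 40.7 and 48.5 CPM in Gli2FFGli3FF (log2 fold change -1.23, SE 0.24, edgeR adjusted p = 0.00489). Bcl3, a nuclear IkB protein, had 3.53, 1.65 and 1.30 CPM in Ctnnb1FF, against 18.1, 7.48, 19.6 and 6.80 CPM in Gli2FFGli3FF (log2 fold change -2.59, SE 0.51, edgeR adjusted p = 0.00529). The haptoglobin gene Hp had 68.3, 67.7 and 64.2 CPM in Ctnnb1FF, against 243, 175, 199 and 294 CPM in Gli2FFGli3FF, and 212 ± 7.89 CPM in Wild Type (SD, n = 5). The Wild Type mean of Hp lay within the range of Gli2FFGli3FF and above every Ctnnb1FF library. Nfkbie and Relb also fell, and 2 calls of the list were left without Ctnnb1FF replicate 2 or without Gli2FFGli3FF replicate 1. The edgeR call of Hp was lost without Ctnnb1FF replicate 1 (0.0566), 2 (0.0779) or 3 (0.0649) or Gli2FFGli3FF replicate 1 (0.0518).

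Cytokine genes went both ways, since Lif and Cxcl5 fell while Ccl19 rose among 28 tested. Lif had 0.056, 0 and 0.650 CPM in Ctnnb1FF, against 13.5, 2, 1.90 and 6.80 CPM in Gli2FFGli3FF (log2 fold change -4.67, SE 1.04, edgeR adjusted p = 0.0126). Cxcl5, a neutrophil-attracting chemokine, had 65.1, 73.2 and 25.6 CPM in Ctnnb1FF, against 294, 312, 115 and 84.0 CPM in Gli2FFGli3FF (log2 fold change -1.88, SE 0.42, edgeR adjusted p = 0.0135). That call was lost without Ctnnb1FF replicate 3 (0.0658) or Gli2FFGli3FF replicate 1 (0.0545) or 2 (0.058). Wild Type averaged 36.2 ± 6.56 CPM for Cxcl5 (SD, n = 5). Over Wild Type, Cxcl5 was not called in Ctnnb1FF (0.60, edgeR adjusted p = 0.244) and was higher in Gli2FFGli3FF (2.48, edgeR adjusted p = 5.04e-05). Lif was lower than Wild Type in Ctnnb1FF (-4.35, edgeR adjusted p = 0.00406) and not called in Gli2FFGli3FF (0.33, edgeR adjusted p = 0.789). Of 39 interferon response genes, Ifit3 rose and Irf7 and Gbp2 fell, with Irf7 at 1.57 to 4.54 CPM in Ctnnb1FF and 4.68 to 24.9 CPM in Gli2FFGli3FF. Beside these cytokine and interferon counts, 1.71% of all tested genes were called higher and 2.49% lower. Among expressed genes the shares were 3.84% and 3.87%. Of 9 class II genes, which mark antigen-presenting cells, H2-DMa and H2-DMb2 fell. These differences stood beside the immune marker sums of 22.0 to 62.4 CPM in Ctnnb1FF and 89.3 to 583 CPM in Gli2FFGli3FF, of which the highest was Gli2FFGli3FF replicate 1. The part of immune RNA in them was not tested. Irf7 kept its edgeR call whichever single library was left out. Ifit3 was lost without Ctnnb1FF replicate 2 (0.15) or Gli2FFGli3FF replicate 1 (0.072), 2 (0.0689) or 4 (0.0558). H2-DMa was lost without Ctnnb1FF replicate 2 (0.072) or 3 (0.0573) or Gli2FFGli3FF replicate 1 (0.0678), where its log2 fold change was -3.84, against -4.49 with all libraries. H2-DMb2 was called, among single libraries left out, only without Gli2FFGli3FF replicate 4, and had a log2 fold change of -6.39 without Gli2FFGli3FF replicate 1, against -6.53 with all libraries. Likewise, Gbp2 was called, among single libraries left out, only without Gli2FFGli3FF replicate 4.

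Calls among energy metabolism genes were few. Of 52 nuclear oxidative phosphorylation genes, 4 rose, 0 fell and 45 had positive log2 fold changes, with a median of 0.32. In 22 of them every Ctnnb1FF library was above every Gli2FFGli3FF library, against 6.95% of all tested genes. Atp5h, an ATP synthase subunit, had 158, 207 and 156 CPM in Ctnnb1FF, against 81.3, 76.1, 78.3 and 80.9 CPM in Gli2FFGli3FF (log2 fold change 1.13, SE 0.25, edgeR adjusted p = 0.0117), and Ndufs3, a complex I subunit, had 52.1, 61.5 and 64.3 CPM in Ctnnb1FF, against 29.0, 36.4, 25.4 and 29.0 CPM in Gli2FFGli3FF (0.98, SE 0.22, edgeR adjusted p = 0.0129). Without Ctnnb1FF replicate 2, 1 of the 4 calls was left, with Atp5h at 0.0709. With the Y-linked level as a covariate, 0 were called. The 13 mitochondrially encoded protein genes had 0 edgeR calls and a median of -0.06, with 1 at an unadjusted p under 0.05, which was lower and was the 1 gene that DESeq2 called.

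Imprinted growth genes rose more often than they fell, with 5 higher and 1 lower among 18. Peg3, a zinc-finger gene expressed from the paternal allele, had 160, 148 and 135 CPM in Ctnnb1FF, against 53.9, 48.8, 56.8 and 59.6 CPM in Gli2FFGli3FF (log2 fold change 1.43, SE 0.26, edgeR adjusted p = 0.0031). Sgce, which encodes epsilon-sarcoglycan, had 214, 233 and 199 CPM in Ctnnb1FF, against 93.8, 85.7, 118 and 118 CPM in Gli2FFGli3FF (log2 fold change 1.05, SE 0.17, edgeR adjusted p = 0.00148). Both were called in all 20 other settings, and both had Wild Type means between the genotypes, at 100 ± 11.6 CPM for Peg3 and 162 ± 16.8 CPM for Sgce (SD, n = 5). Mest had 27.2, 31.1 and 19.9 CPM in Ctnnb1FF, against 3.78, 6.80, 7.49 and 9.48 CPM in Gli2FFGli3FF (log2 fold change 1.92, SE 0.37, edgeR adjusted p = 0.00446), near its Wild Type mean of 27.7 ± 11.5 CPM (SD, n = 5). Zim1 and Gnas completed the rises, and Nnat had no count in Ctnnb1FF and 0 to 5.59 CPM in Gli2FFGli3FF. Without Gli2FFGli3FF replicate 1, 3 of the 5 rises were called.

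Cell cycle genes gave 0 calls among 42 tested, by edgeR, although 37 had negative log2 fold changes with a median of -1.13. At an unadjusted p under 0.05, 10 were lower and 0 higher, DESeq2 called 7 lower and limma voom 1 lower. For all genes, 5224 of 24383 had an unadjusted p under 0.05 in either direction. DESeq2 called 1148 higher and 1731 lower of 39351, and limma voom 432 higher and 375 lower of 24383. The 19 glycolysis genes also had 0 edgeR calls, with 4 lower at an unadjusted p under 0.05, 1 lower by DESeq2 and 0 by limma voom. Of 39 immediate-early genes, Jund fell, to 19.5, 21.8 and 35.7 CPM in Ctnnb1FF, against 64.5, 57.4, 82.4 and 86.5 CPM in Gli2FFGli3FF (log2 fold change -1.5, SE 0.38, edgeR adjusted p = 0.0267). That call was lost without Ctnnb1FF replicate 1 (0.0842) or 2 (0.103) and without Gli2FFGli3FF replicate 3 (0.0533) or 4 (0.0512). In 11 of the 39 every Ctnnb1FF library lay below every Gli2FFGli3FF library, as in 6.78% of all tested genes. At an unadjusted p under 0.05, 12 immediate-early genes were lower and 4 higher, DESeq2 called 7 lower and 2 higher, and limma voom called 0. With the ribosomal RNA share as a covariate 7 were called lower, and with the Y-linked level as a covariate 0 were lower and 1 higher.

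**Figure D5:**
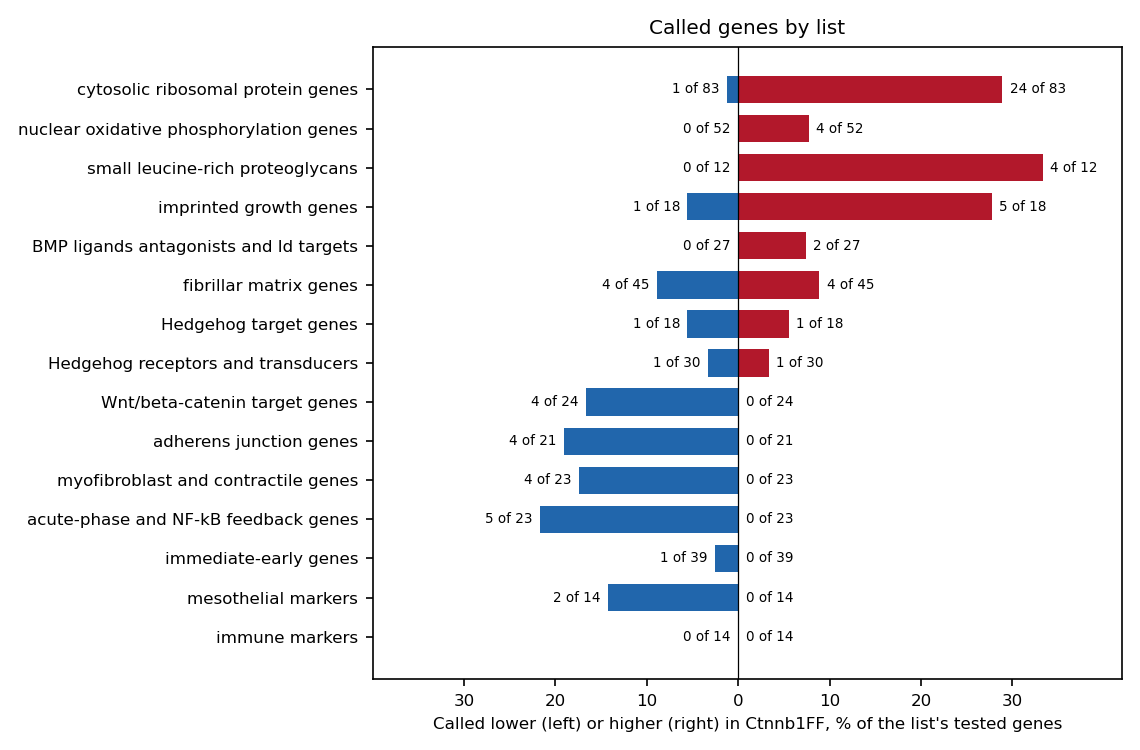
Share of each list's tested genes called higher (red, right) or lower (blue, left) in Ctnnb1FF than in Gli2FFGli3FF, with the counts beside each bar. Ribosomal protein genes, small leucine-rich proteoglycans and imprinted growth genes have most of their calls on the higher side, and Wnt/beta-catenin targets, adherens junction, contractile and acute-phase genes have theirs on the lower side. Over all tested genes the shares are 1.71% higher and 2.49% lower.

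Among called genes with a mean log2 CPM of 3 or more, Rps2, a ribosomal protein gene, had the largest rise over Gli2FFGli3FF. Its fold was smaller when its named pseudogenes were summed with it. Of 83 cytosolic ribosomal protein genes, a list added after values had been seen, 24 rose and 1, Rpl29, fell, with a median log2 fold change of 0.65. In 67 of them every Ctnnb1FF library was above every Gli2FFGli3FF library, as in 6.95% of all tested genes. Without Ctnnb1FF replicate 2, 14 were called higher, and with the level of Y-linked transcripts as a covariate 10 were. Rps2 had 428, 554 and 520 CPM in Ctnnb1FF, against 37.1, 30.2, 28.4 and 35.5 CPM in Gli2FFGli3FF (log2 fold change 3.93, SE 0.21, edgeR adjusted p = 7.35e-11). The Wild Type mean of Rps2, 490 ± 79.2 CPM (SD, n = 5), lay within the range of Ctnnb1FF. Against Wild Type, Rps2 was not called in Ctnnb1FF (log2 fold change 0.03, edgeR adjusted p = 0.937). It was lower than Wild Type in Gli2FFGli3FF (-3.90, SE 0.20, edgeR adjusted p = 3.25e-11). The Rps2 pseudogene Rps2-ps13 went the other way between the genotypes, with 21.9, 32.8 and 29.2 CPM in Ctnnb1FF, against 162, 154, 151 and 146 CPM in Gli2FFGli3FF (log2 fold change -2.45, SE 0.27, edgeR adjusted p = 1.98e-05). Summed over the gene and its named pseudogenes, Rps2 was at 524, 681 and 634 CPM in Ctnnb1FF, against 310, 278, 277 and 263 CPM in Gli2FFGli3FF, a 2.17-fold difference where the gene alone gave 15.3-fold. The same sum was 457 to 661 CPM in Wild Type.

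Rpl34 also had a smaller fold once its pseudogenes were added, although its main pseudogene was not called. The gene had 339, 346 and 319 CPM in Ctnnb1FF, against 30.4, 28.6, 35.9 and 38.4 CPM in Gli2FFGli3FF (log2 fold change 3.33, SE 0.25, edgeR adjusted p = 3.07e-08). Its pseudogene Rpl34-ps1 took most of the reads in both genotypes, with 935, 922 and 860 CPM in Ctnnb1FF, against 1080, 1060, 1110 and 940 CPM in Gli2FFGli3FF (log2 fold change -0.21, SE 0.22, edgeR adjusted p = 0.644). The sum of gene and named pseudogenes was 1300, 1300 and 1210 CPM in Ctnnb1FF, against 1160, 1140, 1200 and 1040 CPM in Gli2FFGli3FF, a 1.12-fold difference in place of the 10-fold difference of the gene. The coding sequences below, from the GENCODE M21 transcripts of mm10, show how little separates gene and copy, with capitals at the bases of the pseudogene that differ from the gene. For each pair, the 120 bases with the most differences are given. Aligned over 351 coding bases, Rpl34 (chr3:130726831-130730398, minus strand) and Rpl34-ps1 (chr6:71124610-71124963, plus strand) differed at 2 bases, an identity of 99.4%. Over 879 coding bases, Rps2 (chr17:24718116-24721929, plus strand) and Rps2-ps13 (chrX:52898588-52899469, plus strand) differed at 7 bases, an identity of 99.2%.
Rpl34: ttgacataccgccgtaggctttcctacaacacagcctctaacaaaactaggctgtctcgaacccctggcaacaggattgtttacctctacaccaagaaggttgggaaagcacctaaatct
Rpl34-ps1: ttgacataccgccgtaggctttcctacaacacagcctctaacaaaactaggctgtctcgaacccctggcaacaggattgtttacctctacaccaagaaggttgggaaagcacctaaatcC
Rps2: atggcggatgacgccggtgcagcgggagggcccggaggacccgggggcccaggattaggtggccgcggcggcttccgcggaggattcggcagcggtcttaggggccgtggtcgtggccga
Rps2-ps13: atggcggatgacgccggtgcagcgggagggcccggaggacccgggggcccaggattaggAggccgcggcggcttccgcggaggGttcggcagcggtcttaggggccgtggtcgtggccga

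Over the 25 called ribosomal protein genes, 22 had at least 1 named pseudogene in the tables, and the sum of gene and named pseudogenes separated the genotypes in 22 of the 25. The sums overlapped for Rpl30, Rps7 and Rpl17. The separate ones include Rpl8, Rps14 and Rpl11, which had no named pseudogene, so that their sum was the gene alone. Some margins were narrow. For Rpl34 the lowest Ctnnb1FF sum was 1210 CPM and the highest Gli2FFGli3FF sum 1200 CPM. Genes with no named pseudogene in the tables also differed, as Rpl8 did at 1500, 1660 and 1400 CPM in Ctnnb1FF, against 865, 901, 912 and 927 CPM in Gli2FFGli3FF (log2 fold change 0.76, SE 0.17, edgeR adjusted p = 0.0156). Rps14 had 1420, 1630 and 1380 CPM in Ctnnb1FF, against 829, 881, 765 and 856 CPM in Gli2FFGli3FF (0.82, SE 0.22, edgeR adjusted p = 0.0364). The rise of these genes was 1.69-fold for Rpl8 and 1.77-fold for Rps14. Copies under other symbols were not searched for, and how reads were split between a gene and its copies was not tested, so values for single ribosomal protein genes are uncertain. Rpl29 fell with its pseudogenes included, at 44.5, 46.6 and 45.7 CPM in Ctnnb1FF, against 223, 250, 387 and 220 CPM in Gli2FFGli3FF.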

How the data were processed

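Whole-number read counts for each gene symbol, deposited by the authors as 1 table per Pdgfra genotype, came from libraries of about 1000 sorted cells per individual animal (full-length cDNA, Smart-seq type, per the labels' protocols). Per the submitters' processing notes, reads were placed on mm10. Which aligner, counter and annotation were used, and whether strand was, is not given in the sources used here. Counts carry no molecular identifiers, so PCR copies count separately, and near-identical copies, overlapping genes and antisense genes can share reads. Columns were matched by sample title, and 6 Gli1-lineage columns were not used. Of 55291 distinct symbols, 53292 were found in GENCODE M21, which gave the coordinates.

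All 23 Pdgfra libraries were fitted together by edgeR's quasi-likelihood method (version 4.0.16, R 4.3.3, TMM scaling, filterByExpr), without a replicate block, after the fit had recovered changes in simulated data. Folds are Ctnnb1FF over Gli2FFGli3FF, and rises and falls are relative to Gli2FFGli3FF unless Wild Type is named. A call needed an adjusted p (Benjamini-Hochberg, over all tested genes) under 0.05. SE is the log2 fold change over the root of F. CPM uses TMM-scaled library sizes that include the ribosomal RNA locus. Exact permutation tests used scipy 1.17.1.

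Named genes were a fixed set of pathway genes, up to 12 called genes per direction with the largest change (mean log2 CPM of at least 3, no overlap between groups) and up to 4 called members per list with the smallest p. Other genes named were chosen after their values were seen. The members and lists were chosen with earlier results of these data known. Alternatives were other scalings, filters and tools (DESeq2 1.42.0, limma 3.58.1), a replicate block, the 7 libraries alone, covariates, gene sets left out and each library left out.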

Additional observations from a re-analysis of the deposited data

Results flagged for a closer look

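Among 145 sets of 4 or 5 libraries checked for a library far from the others, 12 held one, and chance marks about 1 in 20. In Gli2FFGli3FF, replicate 4 was far above the other 3 libraries in the summed Y-linked transcripts (200 CPM) and in the Y-linked genes Uty (21.6 CPM), Eif2s3y (55.4 CPM) and Kdm5d (20.4 CPM), and it had the highest ribosomal protein sum (35400 CPM). In the same genotype the highest library was far from the others for Lef1 (0.756 CPM), Syndig1 (6.76 CPM), Smad3 (45.8 CPM), Amotl1 (64.4 CPM), Dbp (0.491 CPM) and the summed pancreatic acinar markers (23.7 CPM). In Wild Type, Gli1 was highest at 27.0 CPM in replicate 5, the library whose description also names SmoFF.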

How the results depend on the processing

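Across the named calls, 1624 of 2193 values under other settings kept direction and side of the threshold, 568 kept direction only and 1 came to 0.00, and 20 of 111 named called genes were called wherever they had a value. The count of called genes (higher and lower in Ctnnb1FF) became 2879 (1148 and 1731) with DESeq2, 1954 (720 and 1234) without a filter, and 304 (190 and 114) with the 7 libraries alone. It became 195 (131 and 64) with protein-coding genes outside ribosomal proteins and mitochondria in those 7 libraries and 405 (171 and 234) with the Y-linked level as a covariate, both settings chosen after seeing the data. Limma voom called 375 lower. Leaving out 1 library gave 530 to 1139 genes, 230 to 446 higher and 300 to 693 lower. The replicate block gave 587 (233 and 354), but the numbers do not pair the libraries: deviations of same-numbered libraries correlated at 0.0763, -0.0142 and 0.00541 over 8534 genes. Ctnnb1 fell short in the protein-coding fit of the 7 libraries (-0.98). Gli3 passed with RLE (1.14), upper quartile scaling (1.25), DESeq2 (1.14), no filter (1.11), a minimum of 10 counts (1.13), the replicate block (1.21) and without ribosomal genes and pseudogenes (1.16), and by leaving out 1 library ranged from 0.91 to 1.39. Genes that changed sign were, outside the calls, Notum (0.03 with upper quartile scaling, 2.16 with the Y-linked covariate, and -0.69 to 0.52 leaving out 1 library), Wif1 (0.02, 1.26, and -0.95 to 0.40 in the same way), Apcdd1 (0.20 with the ribosomal RNA covariate, -1.02 to 0.04 leaving out 1 library), Jup (-1.27 to 0.10) and Hhip over Wild Type (-0.41 to 0.67). Lef1, also not called, ranged from -5.81 to 0.00 leaving out 1 library. The called gene Cela2a ranged from 0.00, without Ctnnb1FF replicate 3, its only library with counts, to 9.30. The cause of the other changes was not tested.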

Other observations

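Growth factor genes, receptors included, had 2 rises and 2 falls among 35 tested, with Hgf and Bdnf higher and Fgf2 and Fgf10 lower in Ctnnb1FF. Bdnf had 2.63, 0.0392 and 0 CPM in Ctnnb1FF, against 0 CPM in every Gli2FFGli3FF library, so the groups overlapped, and its call was lost without Ctnnb1FF replicate 1 (edgeR adjusted p = 0.429) or any 1 Gli2FFGli3FF library (0.086 to 0.108). Fgf2 lost its call without Ctnnb1FF replicate 1 (0.084) or 2 (0.113) or Gli2FFGli3FF replicate 2 (0.0709) or 3 (0.052). Hgf, the ligand of the Met receptor, had 82.6, 62.2 and 50.4 CPM in Ctnnb1FF, against 16.3, 23.5, 45.8 and 29.2 CPM in Gli2FFGli3FF and 19.2 ± 3.88 CPM in Wild Type (SD, n = 5; log2 fold change 1.18, SE 0.33, edgeR adjusted p = 0.0432). Its call was kept, among single libraries left out, only without Ctnnb1FF replicate 3 or Gli2FFGli3FF replicate 3, and adjusted p was otherwise 0.0724 to 0.0973. Over all 20 other settings it was called in 10, and the log2 fold change was 0.74 with the ribosomal RNA share as a covariate (adjusted p = 0.283). Fgf10, a mesenchymal ligand that acts on epithelium, had 43.3, 34.5 and 42.6 CPM in Ctnnb1FF, against 57.4, 54.3, 157 and 172 CPM in Gli2FFGli3FF (log2 fold change -1.46, SE 0.38, edgeR adjusted p = 0.0301). That call was lost when any 1 Ctnnb1FF library was left out (0.0621 to 0.121) and without Gli2FFGli3FF replicate 3 (0.0896) or 4 (0.0831), the libraries with the highest Fgf10. It was called in 9 of 20 other settings, and the log2 fold change was -0.82 with the level of Y-linked transcripts as a covariate (adjusted p = 0.458). Wild Type averaged 40.2 ± 12.2 CPM for Fgf10 (SD, n = 5), near Ctnnb1FF, which was not called against it. Gli2FFGli3FF was higher than Wild Type for Fgf10 (log2 fold change 1.46, SE 0.32, edgeR adjusted p = 0.00267).

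Among 21 tested p53 targets and apoptosis genes, Ccng1 and Phlda3 were lower in Ctnnb1FF and none was called higher. Phlda3 was called in 9 of 20 other settings and lost its call without Ctnnb1FF replicate 1 or 3 or Gli2FFGli3FF replicate 1 or 3 (edgeR adjusted p of 0.0985 to 0.156). Ccng1 had 63.0, 38.3 and 67.0 CPM in Ctnnb1FF, against 122, 149, 118 and 96.4 CPM in Gli2FFGli3FF (log2 fold change -1.11, SE 0.22, edgeR adjusted p = 0.0055), and lost its call without Ctnnb1FF replicate 2 (0.0508) but kept it in 17 of 20 other settings.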
